A study of Mus musculus with 5 samples.

Results

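The genes described here are 43 genes of ribosome biogenesis and the nucleolus, chosen by symbol and found among the 54100 genes of the deposited table by their Ensembl identifiers in the GENCODE M21 annotation of the mouse build GRCm38. All 43 were found. The symbols were listed by function and by no threshold on a measured value. RNA was measured in B16F10, a mouse skin melanoma line, in 5 poly(A) RNA-seq libraries, 1 for each culture, and each library pooled 3 repeats. The libraries were labelled HIF-1α overexpression, HIF-1α knockdown, dynamic suspension culture, conventional 3D culture and shControl. The last 3 carry the genotype label WT, the others are labelled only by their genetic change, no treatment is given for any, and 1 growth protocol of serum-free suspension on a shaker for 7 to 10 days stands under all 5. The sources used here do not give the promoter, vector, hairpin or clone behind the altered cells, nor how shControl was cultured beyond that shared protocol.

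The labels were checked first. Hif1a, the gene named in 2 of the labels, had 384 CPM in the library labelled overexpression, 95.1 in that labelled knockdown, 390.5 in dynamic suspension, 542 in conventional 3D and 61.3 in shControl. The library labelled overexpression was above shControl by a log2 ratio of 2.65 (interval 2.59 to 2.71). Dynamic suspension and conventional 3D, which share the WT label of shControl, were also above it, by 2.67 and 3.14. The library labelled overexpression was above neither of them. Thus shControl, the reference of most comparisons that follow, had the lowest Hif1a of all libraries despite its WT label. The library labelled knockdown was also above shControl, by 0.63 (interval 0.54 to 0.72), which goes against its label. The sample descriptions alone tie every column to its label. The column of the library labelled knockdown bears only the name of the line, B16F10, so every value of this library rests on its description. It is therefore named by its label only, and no direction drawn from it is read as an effect of losing Hif1a. Of 7 melanocyte markers all 7 were measured, with summed levels between 14700 and 30820 CPM. Markers of other cell types were low. Immune markers summed to between 0.853 and 13.2 CPM with Cd3e and Itgam at 0 in every library, endothelial markers to between 1.85 and 10.7 CPM with Cdh5 at 0, epithelial markers to below 1 CPM with Epcam and Krt5 at 0, and fibroblast markers to 3.22, 11.03, 26.0, 119 and 32.1 CPM in the libraries labelled overexpression and knockdown, dynamic suspension, conventional 3D and shControl. The deposited values summed to 15393189 and 14803426 in the libraries labelled overexpression and knockdown, and to between 59493240 and 61267892 in the other 3, whose values look like estimated counts. For a comparison of the libraries labelled knockdown or overexpression with shControl, the kind of count and the culture cannot be told apart. With 1 library per culture there is no replicate check and no test of a condition, and the intervals given are 95% intervals for counting error only. In bulk RNA, fewer cells of a type and less RNA per cell cannot be told apart.

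Ribosome biogenesis begins in the nucleolus, where RNA polymerase I (Pol I) transcribes the rRNA precursor. Small nucleolar ribonucleoproteins (snoRNPs) then guide its modification, box C/D particles for methylation of ribose and box H/ACA particles for pseudouridine, while processing factors fold and cut it into the RNAs of the small and the large subunit. The programme is known to be high in growing cells and to be driven by the transcription factor Myc, which binds the E-box CACGTG, and enlarged nucleoli are a long-known feature of melanoma and other tumours.

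Promoter sequences are shown here because many of these genes are known Myc targets and because most members were lower together in 4 of the comparisons. Of the 43 genes, 37 matched the RefSeq promoter table (GRCm38.p6), which holds 250 bases before to 50 after each start. The letters CACGTG, which read the same on both strands, were present in 6 of the 37 (16.2%), against 2187 of 27025 genes of that table (8.09%). A gene was counted when any of its windows held the letters. The 27025 genes include genes not measured in these libraries, whereas every member was measured, so the 2 shares come from unlike sets. The holders were Mybbp1a, Nop2, Pes1, Rrn3, Utp20 and Wdr43. ACGTG, a form of the core letters of the HIF element, was searched on either strand and outside a CACGTG, with which it overlaps. It was present in 6 of the 37 (16.2%), against 4122 of 27025 (15.3%). Other forms of that core were not counted. The windows below are chr6:125131633-125131932 for Nop2 (plus strand), chr11:72441077-72441376 for Mybbp1a (plus strand), chr16:13780449-13780748 for Rrn3 (plus strand), chr10:88826765-88827064 for Utp20 (minus strand) and chr2:130274162-130274461 for Nop56 (plus strand), each written 5′ to 3′ along its own gene, with CACGTG in capitals. Nop56 is shown beside the holders as a member without the motif in this window and with ratios among the lowest in 3 of the comparisons that follow.
Nop2: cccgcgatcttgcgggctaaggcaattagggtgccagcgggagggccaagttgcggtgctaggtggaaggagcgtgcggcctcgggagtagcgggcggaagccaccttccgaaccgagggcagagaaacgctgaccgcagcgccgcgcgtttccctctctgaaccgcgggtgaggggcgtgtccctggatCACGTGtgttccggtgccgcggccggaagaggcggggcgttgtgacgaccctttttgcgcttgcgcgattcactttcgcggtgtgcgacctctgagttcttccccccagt
Mybbp1a: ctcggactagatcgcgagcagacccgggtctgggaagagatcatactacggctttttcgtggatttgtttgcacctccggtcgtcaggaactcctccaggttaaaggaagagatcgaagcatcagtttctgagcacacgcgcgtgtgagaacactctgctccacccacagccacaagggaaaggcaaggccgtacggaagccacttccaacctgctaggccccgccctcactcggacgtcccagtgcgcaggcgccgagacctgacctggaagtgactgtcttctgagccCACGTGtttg
Rrn3: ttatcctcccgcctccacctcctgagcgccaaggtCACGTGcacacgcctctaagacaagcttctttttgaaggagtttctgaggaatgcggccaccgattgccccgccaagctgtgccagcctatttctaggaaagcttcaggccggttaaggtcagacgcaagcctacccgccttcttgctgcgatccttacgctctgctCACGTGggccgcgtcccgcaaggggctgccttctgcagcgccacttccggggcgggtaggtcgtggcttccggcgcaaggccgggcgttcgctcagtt
Utp20: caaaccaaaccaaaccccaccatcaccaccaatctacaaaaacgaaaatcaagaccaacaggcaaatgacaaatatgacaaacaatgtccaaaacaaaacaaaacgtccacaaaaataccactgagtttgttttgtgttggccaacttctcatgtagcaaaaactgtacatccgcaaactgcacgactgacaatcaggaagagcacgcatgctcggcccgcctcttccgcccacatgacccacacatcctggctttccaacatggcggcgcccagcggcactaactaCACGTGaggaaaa
Nop56: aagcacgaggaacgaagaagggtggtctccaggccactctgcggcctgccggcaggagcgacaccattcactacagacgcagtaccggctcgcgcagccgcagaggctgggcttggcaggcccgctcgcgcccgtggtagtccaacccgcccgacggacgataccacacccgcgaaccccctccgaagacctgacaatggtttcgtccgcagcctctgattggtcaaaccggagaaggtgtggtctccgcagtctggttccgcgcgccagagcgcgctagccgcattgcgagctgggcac
In Nop2 the motif began 60 bases before the start, and in Rrn3 there were 2 motifs, beginning 215 and 48 bases before it. In Mybbp1a and Utp20 it lay 40 and 37 bases past the start, inside the transcribed part. A match is a description of the letters and no evidence that a factor was bound.

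Levels are TMM-scaled CPM, counts relative to the scaled library size. The 43 genes summed to 2261 CPM in the library labelled overexpression, 5426 in that labelled knockdown, 2613 in dynamic suspension, 2702 in conventional 3D and 6440 in shControl. The median member stood at 41.0, 80.0, 35.0, 45.6 and 88.4 CPM in those libraries. Every member had its highest level either in the library labelled knockdown, as 22 of 43 did where 26.1% of all 12848 measured genes were highest there, or in shControl, as 21 of 43 did where 21.3% of all genes were highest there. None was highest in the other 3 libraries. For Polr1e, Nop56, Gar1, Pes1 and Wdr12 the counting intervals of the highest and the second-highest library overlapped, so their place in this split is not firm. The lowest level fell in dynamic suspension for 23 members (19.9% of all genes), in the library labelled overexpression for 13 (21.1% of all genes) and in conventional 3D for 7 (13.4% of all genes). Among the 3 libraries with estimated counts, 43 of 43 members were highest in shControl, against 40.7% of all genes. That count was 42 when DESeq2 size factors replaced TMM. It was 41 with TMM refitted without the libraries labelled knockdown and overexpression, an alternative chosen after seeing the data.

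**Figure D1:**
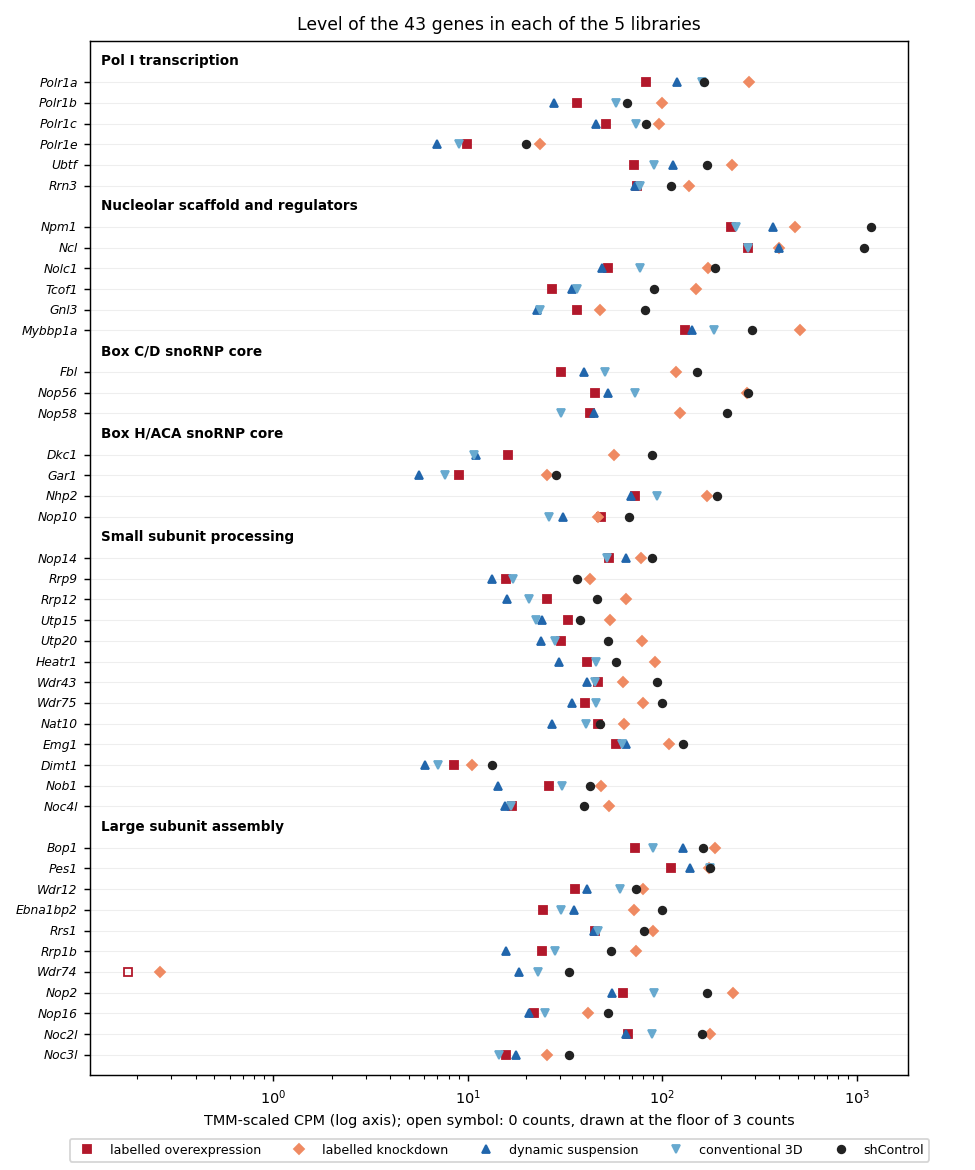
Level of each of the 43 genes in TMM-scaled CPM (log axis), grouped by role, with 1 symbol for each of the 5 libraries. Diamonds (library labelled knockdown) or black circles (shControl) stand farthest right in every row, and the open square marks Wdr74 at 0 counts in the library labelled overexpression, drawn at the floor of 3 counts.

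Compared per kilobase of merged exon length, which also counts exons of transcripts with retained introns, the mean level over the 5 libraries was highest for Npm1 at 188 CPM per kb, Nhp2 at 104.5 and Pes1 at 51.4. The lowest were Dimt1 at 2.36 CPM per kb and Polr1e at 3.56. Within a gene, the level in its highest library exceeded that in its lowest by between 1.60 times for Pes1 and 8.24 times for Dkc1, leaving out Wdr74, which had 0 counts in the library labelled overexpression.

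The 6 comparisons differed in how the genes stood, and 4 of them had shControl as their reference, so those 4 are not independent of each other. A gene counted as higher or lower beyond 2-fold where the log2 ratio reached 1 or -1, the 2 libraries averaged 1 CPM or more and the counting interval left out equal levels. The same rule was also read at 1.5-fold. Set against shControl, the library labelled overexpression had 28 of 43 members lower beyond 2-fold and 0 higher, while 20.1% of all genes were lower and 16.1% higher by that rule. At 1.5-fold 39 of 43 were lower and 0 higher, against 30.1% and 26.8% of all genes. The members' median log2 ratio was -1.16, against -0.02 for all genes, and 43 of 43 ratios were below 1 (42 when total counts replaced TMM, with Nat10 above), against 50.7% of all genes.

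The library labelled overexpression over that labelled knockdown compares columns taken to be of the same kind, plain counts. There, 25 of the 42 members that passed the filter were lower beyond 2-fold and 0 higher, against 14.9% of all genes lower and 17.7% higher, and Wdr74 did not pass the filter. At 1.5-fold 35 of 42 were lower, against 26.8% of all genes. The median was -1.24, and 41 of 42 ratios were below 1, against 51% of all genes.

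Dynamic suspension over shControl, both taken as estimated counts, gave 28 of 43 members lower beyond 2-fold and 0 higher. Of all genes, 14.8% were lower and 13.8% higher. At 1.5-fold 39 of 43 were lower, against 26.6% of all genes. The median was -1.30 and 43 of 43 ratios were below 1, against 51.2% of all genes. Conventional 3D over shControl, again both taken as estimated counts, gave 22 of 43 lower and 0 higher. Of all genes, 14.9% were lower and 14% higher. At 1.5-fold 33 of 43 were lower, against 26.5% of all genes. Its median was -1.03, and 43 of 43 ratios were below 1 (42 with DESeq2 size factors, and 41 with TMM over those 2 libraries only, where Pes1 and Polr1a were above), against 50.4% of all genes. Over all genes this comparison called 1815 higher and 1920 lower, and 1275 higher and 2740 lower when total counts replaced TMM.

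The other 2 comparisons gave medians nearer to that of all genes. For the library labelled knockdown over shControl, 0 members were higher and 3 lower beyond 2-fold (Wdr74, Ncl and Npm1), against 8.05% and 15.7% of all genes, and 2 of 42 were lower without Wdr74. At 1.5-fold 5 were higher and 6 lower, against 20.2% and 25.1% of all genes. The median was 0.12, or 0.0 with TMM over protein-coding genes of unshared sequence, and 22 ratios were above 1 and 21 of 43 below (19 with DESeq2 size factors), where 49.7% of all genes were below. In dynamic suspension over conventional 3D, 0 members were higher and 2 lower beyond 2-fold (Nob1 and Polr1b), against 6.44% and 7.64% of all genes, and with total counts 0 were lower. At 1.5-fold 1 was higher (Npm1) and 7 lower, against 14.3% and 16.8% of all genes. The median was -0.32, with 31 of 43 ratios below 1 (25 with total counts), against 51.7% of all genes. Over all genes this comparison called 829 higher and 984 lower, and 1117 higher and 703 lower with total counts.

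**Figure D2:**
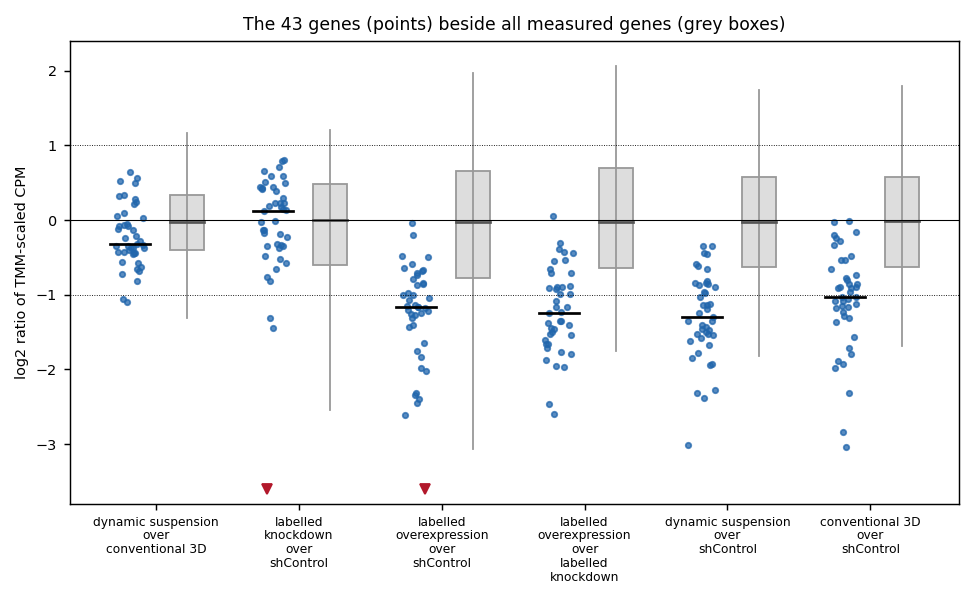
Log2 ratio of TMM-scaled CPM in each of the 6 comparisons, with the members as points and their median as a black bar, beside all measured genes in grey (box for quartiles, line from the 5th to the 95th percentile). The members' medians lie between -1.03 and -1.30 in 4 comparisons, at -0.32 in dynamic suspension over conventional 3D and at 0.12 in the library labelled knockdown over shControl. Red triangles mark Wdr74 beyond the axis.

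Of the Pol I genes, Polr1a, the largest catalytic subunit, had 82.8 CPM in the library labelled overexpression, 281 in that labelled knockdown, 119 in dynamic suspension, 159.9 in conventional 3D and 163 in shControl. Polr1b, the second-largest subunit, had 36.3 CPM in the library labelled overexpression, 99.4 in that labelled knockdown, 27.9 in dynamic suspension, 57.8 in conventional 3D and 66.3 in shControl. Both were highest in the library labelled knockdown, and their lows fell in different libraries. Polr1c, a subunit shared with RNA polymerase III, had 51.4 CPM in the library labelled overexpression, 96.2 in that labelled knockdown, 45.8 in dynamic suspension, 73.7 in conventional 3D and 82.2 in shControl. Polr1e, a subunit of the Pol I-specific heterodimer, had 9.94 CPM in the library labelled overexpression, 23.5 in that labelled knockdown, 6.93 in dynamic suspension, 9.04 in conventional 3D and 20.03 in shControl. Polr1e was the least abundant of the 6 also per kb, and the library labelled knockdown stood close to shControl, at a log2 ratio of 0.23 (interval 0.06 to 0.40). Ubtf, which binds rDNA and keeps it open, had 71.9 CPM in the library labelled overexpression, 228 in that labelled knockdown, 113 in dynamic suspension, 90.7 in conventional 3D and 170.5 in shControl. Rrn3, the factor that brings Pol I to the promoter and responds to growth signals, had 74.0 CPM in the library labelled overexpression, 137 in that labelled knockdown, 72.5 in dynamic suspension, 77.0 in conventional 3D and 112 in shControl. The Pol I genes had median log2 ratios over shControl of -0.92 in the library labelled overexpression, -0.73 in dynamic suspension and -0.37 in conventional 3D, and in dynamic suspension and conventional 3D no other role group was nearer to shControl. All 6 were above shControl in the library labelled knockdown under all 5 scalings, with a median of 0.36 and Polr1a highest at 0.78 (interval 0.73 to 0.84). There 1 of 6 passed 1.5-fold and 0 passed 2-fold, against 20.2% and 8.05% of all genes higher. Of 10 other Pol I and rDNA factors, outside the set, 4 were above and 6 below shControl there, with a median of -0.29. Of all genes, 49.7% were below shControl in that library. The medians of these 10 factors over shControl were -0.52 in the library labelled overexpression, -0.66 in dynamic suspension and -0.91 in conventional 3D. Polr1a in conventional 3D did not differ from shControl beyond counting error, at -0.03 (interval -0.07 to 0.01). Polr1b was 1 of the 2 members lower beyond 2-fold in dynamic suspension over conventional 3D, at -1.05 (interval -1.14 to -0.97).

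Among the nucleolar scaffold and regulator genes, Npm1, which encodes the abundant nucleolar chaperone nucleophosmin (chr11:33152287-33163206, minus strand), had 226 CPM in the library labelled overexpression, 480.2 in that labelled knockdown, 373 in dynamic suspension, 238 in conventional 3D and 1187 in shControl. Ncl, nucleolin, which binds the rRNA precursor, had 276 CPM in the library labelled overexpression, 401 in that labelled knockdown, 397 in dynamic suspension, 275.5 in conventional 3D and 1087 in shControl. Both stood far higher in shControl than in any other library, and both were lower beyond 2-fold over shControl in all 4 comparisons with it. The log2 ratios of Npm1 over shControl were -2.40 (interval -2.44 to -2.35) in the library labelled overexpression, -1.31 (interval -1.34 to -1.27) in that labelled knockdown, -1.67 (interval -1.69 to -1.65) in dynamic suspension and -2.32 (interval -2.34 to -2.29) in conventional 3D. Npm1 shares sequence with 5 annotated pseudogenes, whose counts came to between 5.41% and 6.86% of its own in the 5 libraries, so its values carry that uncertainty. In dynamic suspension over conventional 3D, Npm1 and Ncl were among the 3 highest members, at 0.65 (interval 0.62 to 0.68) and 0.53 (interval 0.50 to 0.56).

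Nolc1, a snoRNP chaperone, had 52.5 CPM in the library labelled overexpression, 172 in that labelled knockdown, 48.8 in dynamic suspension, 76.8 in conventional 3D and 188 in shControl. Tcof1, treacle, which links Pol I transcription with processing and is mutated in Treacher Collins syndrome in humans, had 27.0 CPM in the library labelled overexpression, 149.6 in that labelled knockdown, 34.6 in dynamic suspension, 36.6 in conventional 3D and 91.3 in shControl. Tcof1 was highest in the library labelled knockdown, and Nolc1 in shControl. Gnl3, the GTPase nucleostemin, first described in stem cells, had 36.6 CPM in the library labelled overexpression, 48.0 in that labelled knockdown, 22.8 in dynamic suspension, 23.7 in conventional 3D and 81.8 in shControl. Mybbp1a, a nucleolar Myb-binding protein with 1 CACGTG in its promoter window, had 131 CPM in the library labelled overexpression, 509 in that labelled knockdown, 142 in dynamic suspension, 184 in conventional 3D and 290.4 in shControl. Mybbp1a had the highest ratio of all 43 members in the library labelled knockdown over shControl, 0.81 (interval 0.77 to 0.85), while Ncl had the lowest apart from Wdr74, -1.44 (interval -1.48 to -1.40). For the library labelled overexpression over that labelled knockdown, Tcof1 was at -2.47 (interval -2.62 to -2.32) and Mybbp1a at -1.96 (interval -2.03 to -1.89), both among the lowest of the members, whereas Gnl3 was at -0.39 (interval -0.55 to -0.24) and Ncl at -0.54 (interval -0.59 to -0.48). All 6 genes of the group were lower beyond 2-fold over shControl in the library labelled overexpression and in dynamic suspension, and 5 of 6 in conventional 3D, where Mybbp1a was at -0.66 (interval -0.70 to -0.63). By that rule 20.1%, 14.8% and 14.9% of all genes were lower in those libraries.

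The box C/D core held the lowest group medians over shControl in the library labelled overexpression, dynamic suspension and conventional 3D. Fibrillarin (Fbl), the methyltransferase of the particle, had 30.3 CPM in the library labelled overexpression, 118 in that labelled knockdown, 39.6 in dynamic suspension, 50.5 in conventional 3D and 150.3 in shControl. Nop56 (chr2:130274430-130279313, plus strand), part of the scaffold on which the particle is built, had 45.1 CPM in the library labelled overexpression, 274 in that labelled knockdown, 52.9 in dynamic suspension, 72.7 in conventional 3D and 276 in shControl. Nop58, its partner in that scaffold, had 42.7 CPM in the library labelled overexpression, 123 in that labelled knockdown, 44.5 in dynamic suspension, 30.2 in conventional 3D and 216.5 in shControl. For each of the 3, the levels in shControl and in the library labelled knockdown were above those in the other 3 libraries. The median log2 ratio of the 3 genes over shControl was -2.34 in the library labelled overexpression, -2.28 in dynamic suspension and -1.93 in conventional 3D. All 3 genes were lower beyond 2-fold in each, against 20.1%, 14.8% and 14.9% of all genes. Over the library labelled knockdown, the median in the library labelled overexpression was -1.96, with 3 of 3 lower beyond 2-fold, against 14.9% of all genes. Nop56 had the lowest ratio of all members there, -2.60 (interval -2.71 to -2.49), and, apart from Wdr74, also over shControl, -2.61 (interval -2.72 to -2.51). Nop56 in the library labelled knockdown over shControl was at -0.01 (interval -0.06 to 0.04) and did not differ beyond counting error, while Nop58 was at -0.81 (interval -0.88 to -0.74). The median there was -0.34, with 3 of 3 ratios below 1 (2 of 3 with DESeq2 size factors), against 49.7% of all genes. Fbl and Nop56 share sequence with pseudogenes whose counts were at most 1.58% of theirs. Nop58 was among the highest members in dynamic suspension over conventional 3D, at 0.56 (interval 0.47 to 0.65).

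In the box H/ACA core, Dkc1 (chrX:75095854-75109777, plus strand), the pseudouridine synthase dyskerin, which is also part of telomerase, had 16.2 CPM in the library labelled overexpression, 56.3 in that labelled knockdown, 11.02 in dynamic suspension, 10.8 in conventional 3D and 88.9 in shControl. Dkc1 was the member with the lowest ratio over shControl in dynamic suspension, -3.01 (interval -3.13 to -2.89), and in conventional 3D, -3.04 (interval -3.17 to -2.92). It was at -2.45 (interval -2.64 to -2.28) in the library labelled overexpression. Gar1 had 9.05 CPM in the library labelled overexpression, 25.7 in that labelled knockdown, 5.64 in dynamic suspension, 7.61 in conventional 3D and 28.3 in shControl. Nhp2, an RNA-binding subunit, had 72.3 CPM in the library labelled overexpression, 171 in that labelled knockdown, 69.3 in dynamic suspension, 94.2 in conventional 3D and 192 in shControl. Nop10, the smallest of the 4 proteins, had 48.4 CPM in the library labelled overexpression, 46.8 in that labelled knockdown, 30.8 in dynamic suspension, 26.1 in conventional 3D and 67.4 in shControl. Gar1 and Nhp2 followed Dkc1 in standing highest in shControl and next highest in the library labelled knockdown. In the library labelled knockdown over shControl, Gar1 was at -0.14 (interval -0.30 to 0.02) and did not differ beyond counting error. Nop10 differed from the rest of the core, as the libraries labelled overexpression and knockdown had nearly the same level. The log2 ratio between these libraries was 0.05 (interval -0.10 to 0.20), the highest of all members in that comparison. The group's median over shControl was -1.53 in the library labelled overexpression, -0.35 in that labelled knockdown, -1.89 in dynamic suspension and -1.63 in conventional 3D. In dynamic suspension and in conventional 3D 4 of 4 were lower beyond 2-fold, against 14.8% and 14.9% of all genes. In the library labelled overexpression 3 of 4 were, against 20.1%.

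**Figure D3:**
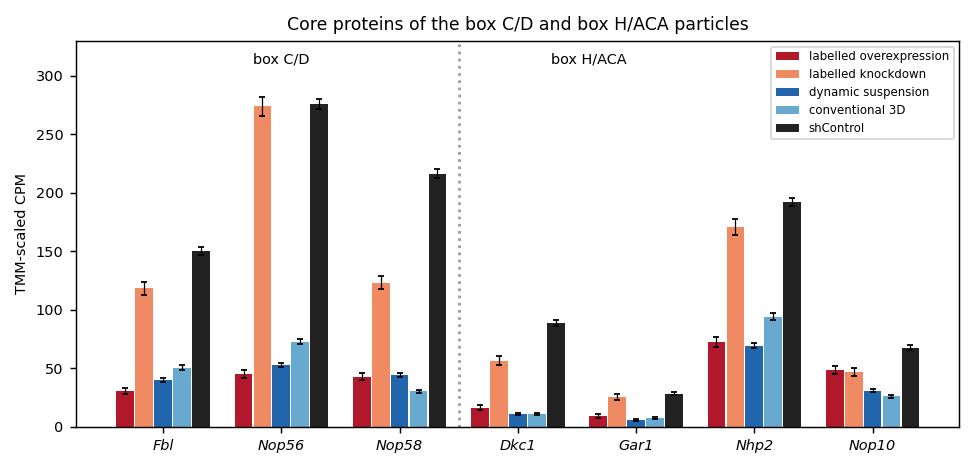
TMM-scaled CPM of the 3 box C/D and 4 box H/ACA core genes, with 1 bar for each of the 5 libraries and 95% counting intervals. Bars of shControl are the tallest for each gene, though for Nop56 and Gar1 not beyond counting error. Those of the library labelled knockdown come next for all but Nop10. Dkc1 stands at its lowest in conventional 3D, 10.8 CPM, against 88.9 in shControl.

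The 13 small subunit genes had medians over shControl of -0.80 in the library labelled overexpression, 0.23 in that labelled knockdown, -1.13 in dynamic suspension and -0.91 in conventional 3D. Lower beyond 2-fold were 5, 0, 8 and 6 of the 13 in those libraries, against 20.1%, 15.7%, 14.8% and 14.9% of all genes. Of the early-acting proteins known to join the nascent precursor, Heatr1 had 41.0 CPM in the library labelled overexpression, 91.4 in that labelled knockdown, 29.6 in dynamic suspension, 45.9 in conventional 3D and 57.9 in shControl. Utp15 had 32.9 CPM in the library labelled overexpression, 53.9 in that labelled knockdown, 24.02 in dynamic suspension, 22.5 in conventional 3D and 37.7 in shControl. Both were highest in the library labelled knockdown, and Utp15 was 1 of the 3 members nearest to shControl in the library labelled overexpression, at -0.19 (interval -0.33 to -0.06). Wdr43 had 46.7 CPM in the library labelled overexpression, 62.8 in that labelled knockdown, 41.1 in dynamic suspension, 45.0 in conventional 3D and 93.9 in shControl. Wdr75 had 40.1 CPM in the library labelled overexpression, 79.6 in that labelled knockdown, 34.5 in dynamic suspension, 45.6 in conventional 3D and 99.5 in shControl. Unlike Heatr1 and Utp15, these 2 were highest in shControl.

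Rrp9, a protein of the U3 snoRNP, had 15.7 CPM in the library labelled overexpression, 42.7 in that labelled knockdown, 13.4 in dynamic suspension, 17.1 in conventional 3D and 36.4 in shControl. Utp20, a large scaffold protein, had 30.2 CPM in the library labelled overexpression, 78.9 in that labelled knockdown, 23.9 in dynamic suspension, 28.2 in conventional 3D and 52.4 in shControl. Rrp12, known in yeast for export of subunits, had 25.5 CPM in the library labelled overexpression, 65.4 in that labelled knockdown, 15.9 in dynamic suspension, 20.6 in conventional 3D and 46.4 in shControl. All 3 of these were highest in the library labelled knockdown and lowest in dynamic suspension. Nop14 had 53.4 CPM in the library labelled overexpression, 77.8 in that labelled knockdown, 65.1 in dynamic suspension, 51.8 in conventional 3D and 88.4 in shControl. Noc4l, whose yeast counterpart binds Nop14, had 16.9 CPM in the library labelled overexpression, 53.5 in that labelled knockdown, 15.5 in dynamic suspension, 16.8 in conventional 3D and 39.5 in shControl. Nop14 spanned only 1.71 times between its highest and its lowest library, and Noc4l spanned 3.46 times.

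Of the rRNA-modifying enzymes of this group, Nat10, an acetyltransferase, had 46.7 CPM in the library labelled overexpression, 63.3 in that labelled knockdown, 27.3 in dynamic suspension, 40.6 in conventional 3D and 48.1 in shControl. Nat10 in the library labelled overexpression did not differ from shControl beyond counting error, at -0.04 (interval -0.16 to 0.07), and it was the highest of the 43 ratios there. Emg1, a methyltransferase, had 58.0 CPM in the library labelled overexpression, 109 in that labelled knockdown, 64.8 in dynamic suspension, 62.4 in conventional 3D and 128 in shControl. Dimt1, a dimethyltransferase, had 8.51 CPM in the library labelled overexpression, 10.6 in that labelled knockdown, 6.06 in dynamic suspension, 7.03 in conventional 3D and 13.3 in shControl. Dimt1 was the least abundant member per kb, and counts of a pseudogene that shares its sequence came to between 14.8% and 29.2% of its own, so its values are uncertain. Nob1, the endonuclease that makes the last cut of the small subunit RNA, had 26.1 CPM in the library labelled overexpression, 48.4 in that labelled knockdown, 14.3 in dynamic suspension, 30.7 in conventional 3D and 42.8 in shControl. Nob1 was the member with the lowest ratio in dynamic suspension over conventional 3D, -1.10 (interval -1.22 to -0.98), and it stood at -0.48 (interval -0.57 to -0.39) in conventional 3D over shControl.

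The 11 large subunit genes had medians over shControl of -1.18 in the library labelled overexpression, 0.12 in that labelled knockdown, -0.90 in dynamic suspension and -0.86 in conventional 3D. In those libraries 9, 1, 5 and 3 of the 11 were lower beyond 2-fold, against 20.1%, 15.7%, 14.8% and 14.9% of all genes. Pes1, Bop1 and Wdr12 form 1 complex needed for the large subunit. Pes1 had 111 CPM in the library labelled overexpression, 174 in that labelled knockdown, 139 in dynamic suspension, 176 in conventional 3D and 177 in shControl. Bop1 had 72.8 CPM in the library labelled overexpression, 186 in that labelled knockdown, 127 in dynamic suspension, 89.97 in conventional 3D and 163 in shControl. Wdr12 had 35.5 CPM in the library labelled overexpression, 80.0 in that labelled knockdown, 41.1 in dynamic suspension, 60.7 in conventional 3D and 73.5 in shControl. Pes1 and Bop1 were the highest 2 members in dynamic suspension over shControl, at -0.35 (interval -0.39 to -0.31) and -0.35 (interval -0.39 to -0.31), and Pes1 was the highest in conventional 3D, at -0.01 (interval -0.05 to 0.03), where Wdr12 was at -0.28 (interval -0.34 to -0.21) and Bop1 at -0.85 (interval -0.90 to -0.80). The library labelled overexpression over shControl had Bop1 at -1.16 (interval -1.25 to -1.07) and Wdr12 at -1.05 (interval -1.17 to -0.92), both lower beyond 2-fold, and Pes1 at -0.67 (interval -0.75 to -0.60). Between dynamic suspension and conventional 3D the 3 subunits went different ways, with Bop1 at 0.50 (interval 0.45 to 0.55), Pes1 at -0.34 (interval -0.38 to -0.29) and Wdr12 at -0.56 (interval -0.64 to -0.49). Pes1 shares sequence with pseudogenes whose counts were below 1% of its own in every library.

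Nop2, a methyltransferase of the large subunit RNA with 1 CACGTG before its start, had 62.8 CPM in the library labelled overexpression, 230.1 in that labelled knockdown, 54.98 in dynamic suspension, 90.9 in conventional 3D and 169 in shControl. Ebna1bp2, a processing factor, had 24.5 CPM in the library labelled overexpression, 71.6 in that labelled knockdown, 35.0 in dynamic suspension, 30.2 in conventional 3D and 99.5 in shControl. Nop2 was highest in the library labelled knockdown, and Ebna1bp2 in shControl. Rrs1, which helps bring a ribosomal RNA and protein complex into the large subunit, had 45.1 CPM in the library labelled overexpression, 89.3 in that labelled knockdown, 44.4 in dynamic suspension, 46.5 in conventional 3D and 80.8 in shControl. Rrp1b had 24.1 CPM in the library labelled overexpression, 73.6 in that labelled knockdown, 15.8 in dynamic suspension, 28.0 in conventional 3D and 54.5 in shControl. Rrp1b was 1 of the 3 lowest members in dynamic suspension over conventional 3D, at -0.82 (interval -0.94 to -0.70). Nop16 had 21.9 CPM in the library labelled overexpression, 41.4 in that labelled knockdown, 20.7 in dynamic suspension, 25.1 in conventional 3D and 52.9 in shControl. Noc2l, also known as an inhibitor of histone acetylation, had 66.9 CPM in the library labelled overexpression, 177 in that labelled knockdown, 65.2 in dynamic suspension, 88.6 in conventional 3D and 161 in shControl. Noc3l had 15.7 CPM in the library labelled overexpression, 25.6 in that labelled knockdown, 17.7 in dynamic suspension, 14.5 in conventional 3D and 33.0 in shControl. Nop16 and Noc3l were highest in shControl, and Noc2l and Rrp1b in the library labelled knockdown.

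Wdr74, a factor of large subunit maturation (chr19:8735827-8740624, plus strand), was an exception in level among the members. It had 0 counts in the library labelled overexpression and 4 in that labelled knockdown, against 1111 in dynamic suspension, 1220 in conventional 3D and 2053 in shControl, or 0.263, 18.4, 22.9 and 33.3 CPM in the last 4. A floor of 3 counts per library puts the library labelled overexpression at least 187-fold lower than shControl. The library labelled knockdown was 127-fold lower than shControl, with a counting interval of 49.5 to 466.5. No fold is given between the libraries labelled overexpression and knockdown. The split follows the kind of count, near 0 in the plain counts and well above it in the estimated counts, although the gene's exons overlapped no other gene in M21 and shared no 50-base stretch with another. Zfp593, a listed pathway gene outside the set, had the same split. It had 10 counts in each library of plain counts, against 439 in dynamic suspension, 450 in conventional 3D and 616 in shControl. Unlike Wdr74, Zfp593 shares sequence with other annotated genes. Whether the counting produced the split of either gene was not tested. Within the estimated counts, Wdr74 was at -0.86 (interval -0.96 to -0.75) in dynamic suspension and -0.54 (interval -0.64 to -0.44) in conventional 3D over shControl.

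**Figure D4:**
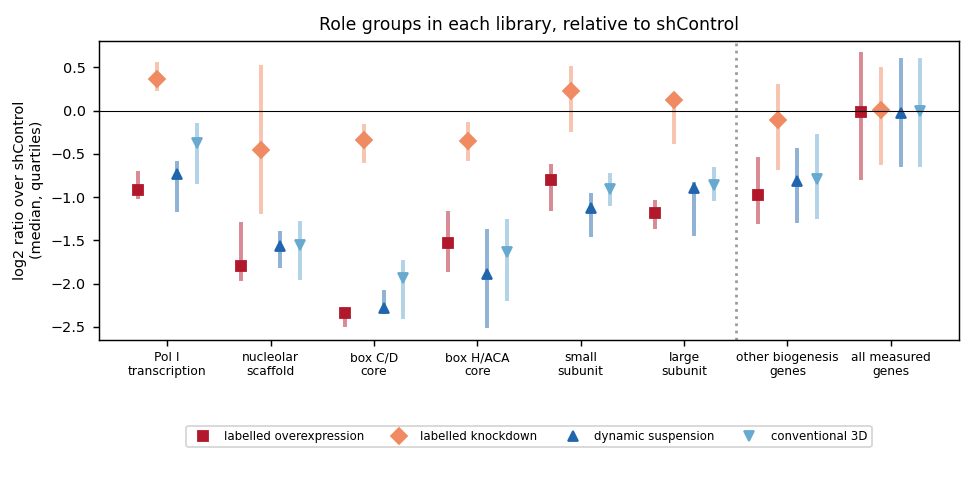
Median log2 ratio over shControl (symbols) with quartiles (bars) for the 6 role groups, for 109 measured genes of the pathway outside the set and for all measured genes, in the library labelled overexpression, that labelled knockdown, dynamic suspension and conventional 3D. The box C/D core stands lowest in the library labelled overexpression, dynamic suspension and conventional 3D, at -2.34, -2.28 and -1.93, and the Pol I group nearest to 0 among the role groups in dynamic suspension and conventional 3D, at -0.73 and -0.37.

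Of 110 other genes of the pathway, outside the 43, 109 were measured. Over shControl, 49 of 109 were lower beyond 2-fold and 0 higher in the library labelled overexpression (median -0.97), where 20.1% of all genes were lower. In dynamic suspension 41 of 109 were lower and 0 higher (-0.81), against 14.8% of all genes lower, and in conventional 3D 41 were lower and 0 higher (-0.79), against 14.9%. The library labelled knockdown had 16 lower and 2 higher (-0.11), close to the 15.7% of all genes that were lower there. For the library labelled overexpression over that labelled knockdown, 38 of 108 were lower and 2 higher (-0.80), against 14.9% of all genes lower. In dynamic suspension over conventional 3D 0 were lower and 1 higher (-0.15), against 7.64% and 6.44% of all genes. Examples at the low end over shControl were Exosc8, a subunit of the RNA exosome that trims rRNA precursors, with 7.93 CPM in dynamic suspension and 51.2 in shControl, and Imp4, a U3 snoRNP protein, with 30.5 CPM in the library labelled overexpression and 134 in shControl. Ppan, a large subunit factor, had 11.4 CPM in dynamic suspension and 60.2 in shControl, a log2 ratio of -2.39, and 16.4 CPM in conventional 3D. Zfp593, whose level followed the kind of count, had the lowest ratio of the 109 over shControl in the libraries labelled overexpression and knockdown. Its ratios there were -3.96 (interval -5.14 to -3.18) and -3.83 (interval -5.00 to -3.04). At the high end, Baz2a, a subunit of the complex that silences rDNA, had 162 CPM in the library labelled overexpression, 168 in that labelled knockdown, 127 in dynamic suspension and 131 in conventional 3D, against 81.2 in shControl. Baz2a was thus above shControl in all 4, with log2 ratios of 0.99, 1.05, 0.64 and 0.69.

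Some of the genes also carry snoRNA genes in their introns. By the annotation, 6 of the 43 (13.95%) hosted 19 snoRNA genes (Nop56 with 5, Nop58 with 4, Gnl3, Ncl and Wdr43 with 3 each and Dkc1 with 1), against 203 of 11395 measured protein-coding genes (1.781%). The 6 hosts had a median log2 ratio over shControl of -2.16 in the library labelled overexpression, -0.71 in that labelled knockdown, -2.06 in dynamic suspension and -1.95 in conventional 3D. For the 37 members without a snoRNA gene the medians were -1.14, 0.18, -1.13 and -0.91 in those libraries. In the comparison of the library labelled overexpression with that labelled knockdown, hosts stood at -1.03 and the others at -1.24. In the library labelled knockdown, 5 hosts were below shControl beyond counting error and Nop56 was at -0.01, while 15 of the 37 others had a ratio below 1, against 49.7% of all genes. These are descriptions of 6 genes, 3 of which are also snoRNP core genes, and spliced snoRNAs themselves are not captured by poly(A) selection.

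Myc and proliferation genes were read beside the set, as background for a programme known from growing cells. Myc had 33.8 CPM in the library labelled overexpression, 102 in that labelled knockdown, 16.8 in dynamic suspension, 36.0 in conventional 3D and 70.1 in shControl. Mki67, the proliferation marker Ki-67, had 36.6 CPM in the library labelled overexpression, 112 in that labelled knockdown, 17.8 in dynamic suspension, 90.2 in conventional 3D and 283 in shControl. The 16 proliferation genes summed to 740.3 CPM in the library labelled overexpression, 4734 in that labelled knockdown, 438.5 in dynamic suspension, 1298 in conventional 3D and 3985 in shControl. Over shControl, 16 of 16 were lower beyond 2-fold in the library labelled overexpression (median -2.50), 1 of 16 in that labelled knockdown (0.23), 16 of 16 in dynamic suspension (-3.33) and 15 of 16 in conventional 3D (-1.64). The shares of all genes lower by that rule were 20.1%, 15.7%, 14.8% and 14.9% in those libraries. Between dynamic suspension and conventional 3D, 14 of the 16 were lower beyond 2-fold, against 7.64% of all genes. The median of the 16 was -1.80, where the biogenesis set had a median of -0.32. The share of values on mitochondrial genes was 5.60%, 2.99%, 6.17%, 13.2% and 3.93% in the libraries labelled overexpression and knockdown, dynamic suspension, conventional 3D and shControl. The part of Myc, of proliferation and of the mitochondrial share in the levels of the 43 genes was not tested.

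**Figure D5:**
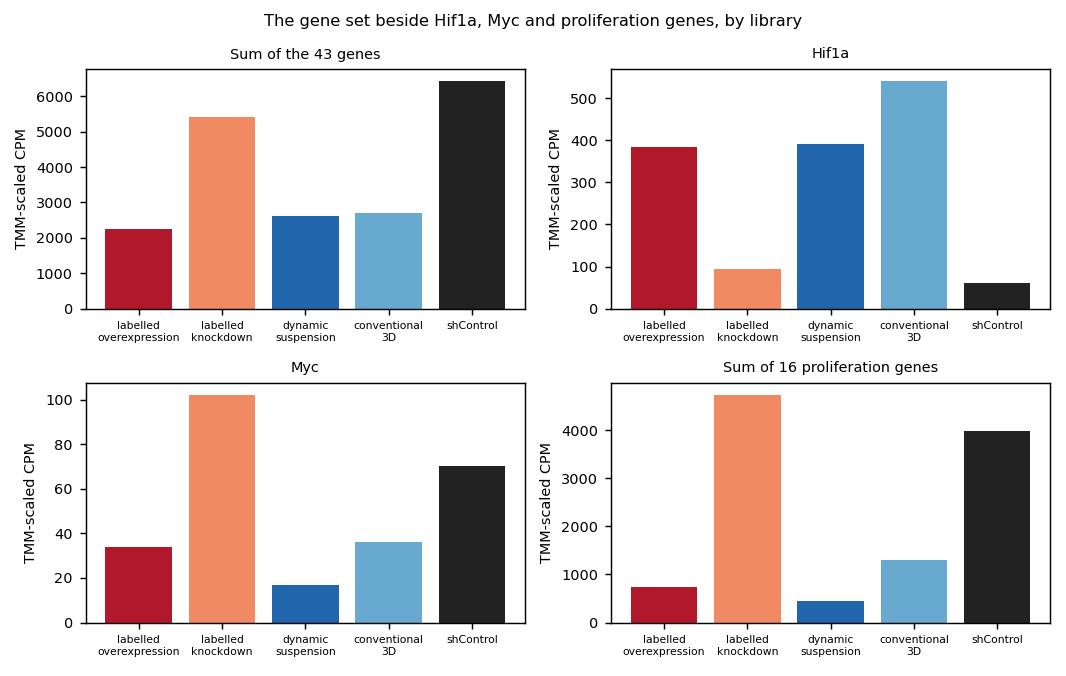
TMM-scaled CPM in each of the 5 libraries for the sum of the 43 genes, Hif1a, Myc and the sum of 16 proliferation genes, as bars without replicates. The sum of the 43 genes was 2261, 5426, 2613, 2702 and 6440 CPM from left to right, and Hif1a was lowest in shControl at 61.3 CPM and in the library labelled knockdown at 95.1.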

How the data were processed

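RNA-seq of 5 libraries was used as deposited, as values per Ensembl gene. Per the labels' protocols, RNA of integrity number over 7.0 was selected for poly(A), made into strand-specific libraries of about 300 bp insert and read from both ends for 150 bp. The submitters' processing notes name StringTie, HISAT2 and cutadapt and the builds mm10 and GRCm38.p6, and what counted the reads, on which gene models, was not given in the sources used here. For the libraries labelled overexpression and knockdown the values as deposited are taken as plain counts. There, more genes stood at 3 than at 4 (620 against 487, and 580 against 422). Those deposited for conventional 3D, dynamic suspension and shControl are taken as estimated counts, since low values pile up at 4 over 3 (796 to 926 genes at 4, against 412 to 482 at 3), and they may not be in the same unit.

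All 54100 identifiers matched GENCODE M21, and 0 sample columns were left over. Library sizes were scaled with TMM factors over all genes (edgeR 4.0.16 in R 4.3.3), which were 1.091 and 1.029 for the libraries labelled overexpression and knockdown, 0.9902 for dynamic suspension, 0.8686 for conventional 3D and 1.035 for shControl. The log2 ratio of 2 libraries used a prior count of 2, with the exact conditional binomial (Clopper-Pearson) 95% interval (scipy 1.17.1). This interval covers counting error only and may be too narrow for estimated counts. A gene was taken as measured where the 2 libraries of a ratio, or all 5 for levels, averaged 1 CPM or more. Single libraries allow no test of a condition, so no p-values are given. The ratio code was tested on simulated data. A member was called of shared sequence when at least 10% of its exon length overlapped another gene or at least 10% of its 50-base words occurred in other genes, which held for Npm1, Fbl, Nop56, Pes1, Dimt1 and Noc2l.

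The members and all gene lists were chosen with earlier results of these data known. All members may be named. Values in every library were to be given for members called beyond 2-fold, for the 3 highest and lowest per comparison and for the snoRNP cores and the Pes1 complex, and genes outside the set that could be named were Hif1a, Myc, Mki67, Trp53, Mdm2, Rpl5, Rpl11 and the highest and lowest of each pathway list. Alternatives were 4 scalings, a prior count of 0.5, a minimum of 10 CPM or none, and members without shared sequence.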

Additional observations from a re-analysis of the deposited data

How the results depend on the processing

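No paired analysis was possible because each culture is 1 library and the labels give no replicate numbers shared between cultures. For the same reason no replicate could be left out. A count was taken as moved when it changed by more than 1.5 times, and a median when it shifted by more than the typical half-width of the members' counting intervals in that comparison. By that measure 6 of the members' counts and medians moved and 169 did not. With total counts in place of TMM, dynamic suspension over conventional 3D had 0 members lower beyond 2-fold (2 with TMM) and a median of -0.13 (-0.32 with TMM), and conventional 3D over shControl had a median of -1.28 (-1.03 with TMM). With TMM over protein-coding genes of unshared sequence, the median was 0.0 in the library labelled knockdown over shControl (0.12 with TMM over all genes), -1.28 in the library labelled overexpression over shControl (-1.16) and -1.10 in conventional 3D over shControl (-1.03). These scalings also moved the median of all genes, by 0.189 in dynamic suspension over conventional 3D and by -0.253 in conventional 3D over shControl for total counts. For unshared sequence the shift was -0.121 in the library labelled overexpression and -0.117 in that labelled knockdown, both over shControl. Each of these shifts is about that of the members' median. With total counts, the share of calls over all genes that were higher was 61.4% in dynamic suspension over conventional 3D (45.7% with TMM) and 31.8% in conventional 3D over shControl (48.6% with TMM). For single members, 195 ratios shifted by more than their own counting interval, 2085 shifted by less or not at all, and 0 called ratios reversed. The changes of filter and of member set cannot alter the ratio of a single member. Their part of the 2085 was therefore fixed in advance, and only the scalings and the prior count could shift a ratio. The number lower beyond 2-fold ranged from 24 to 29 in the library labelled overexpression over shControl, from 21 to 27 over the library labelled knockdown, from 23 to 30 in dynamic suspension over shControl and from 19 to 31 in conventional 3D over shControl, with 31 for total counts. The low end of each range was reached in a smaller set, the members without shared sequence. It was 24 of 37, 21 of 36, 23 of 37 and 19 of 37 in that order. The libraries of plain counts had smaller deposited totals, which may not be in the same unit as those of the estimated counts. Within the plain counts, the ratio of Dimt1 between the libraries labelled overexpression and knockdown, -0.31 (interval -0.65 to 0.02), could not be told from equal levels.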

Other observations

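Of 9 listed growth regulators 8 were measured, and over shControl 4 were above and 4 below in the library labelled overexpression, 7 above and 1 below in that labelled knockdown, and 4 above and 4 below in each of dynamic suspension and conventional 3D. Of all genes, 50.7%, 49.7%, 51.2% and 50.4% were below shControl in those libraries. Mxd4, which pairs with Max and is known as a Myc antagonist, had 193.5 CPM in the library labelled overexpression, 69.2 in that labelled knockdown, 212 in dynamic suspension and 186 in conventional 3D, against 40.5 in shControl. Mxi1, a relative of Mxd4, had 66.3, 50.7, 96.3 and 65.4 CPM in those 4 libraries and 24.1 in shControl. Both were above shControl in all 4 libraries. Max itself, the partner of Myc and of both of them, stayed between 53.8 and 80.8 CPM over the 5 libraries. Mtor had 89.2, 129.8, 89.0 and 109.9 CPM in the 4 libraries and 60.8 in shControl. In the other direction, Rps6kb1, a kinase downstream of Mtor, had 51.3, 33.0, 40.5 and 41.2 CPM in the 4 libraries and 75.8 in shControl. Eif4ebp1, a repressor of translation that Mtor inactivates, had 85.7, 257, 65.3 and 53.4 CPM and 111 in shControl, above shControl only in the library labelled knockdown. These genes other than Myc were named after their values were seen.

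Ribosomal proteins Rpl5 and Rpl11 are known to bind Mdm2 when ribosome assembly is disturbed, which frees p53. Rpl5 had 462 CPM in the library labelled overexpression, 789 in that labelled knockdown, 418.5 in dynamic suspension and 317 in conventional 3D, against 737 in shControl. Rpl11 had 235, 481, 257 and 201 CPM in those libraries and 472 in shControl. Both share sequence with other annotated genes, so their values are uncertain. Trp53 had 79.0, 283, 116 and 143.5 CPM, against 201 in shControl, and Mdm2 had 89.3, 82.8, 57.7 and 32.3 CPM, against 114 in shControl. Trp53 and Rpl5 were thus highest in the library labelled knockdown, and Mdm2 in shControl.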
